A study of Mus musculus with 36 samples.

Results

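Cerebellar neuron genes are transcripts that mark the granule cells and Purkinje cells of the cerebellum, the structure that lies over the dorsal hindbrain. The 10 genes Gabra6, Cbln1, Cbln3, Grm4, Etv1, Neurod1, Zic1, Calb1, Pcp2 and Car8 were taken by symbol from the annotation deposited with the count table, and all 10 were found among its 24344 genes. They were followed as a measure of neighbouring tissue in the dissection. All 10 passed the filter on low counts, which left 20108 genes for testing.

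The libraries come from wild-type mice and from tissue labelled as the solitary tract nucleus together with the dorsal motor nucleus of the vagus, the dorsal vagal complex of the caudal brainstem. The strains were C57BL/6J, the common laboratory mouse, NZO/HlLtJ, which becomes obese, and CAST/EiJ, which was derived from wild mice. Each was given a control food (10% fat, with fiber) or a high-fat, high-sugar food (HFHS; 44% fat, with fiber). Feeding started at 6 weeks of age and tissue was taken at 15 weeks, in females and males. Each of the 12 combinations of strain, diet and sex has 3 libraries, so that a strain on one diet has 6, a strain has 12, and there are 36 in all. Replicate numbers follow sample order and only name a library. The labels do not say whether each library is a separate animal, so p-values measure the spread between these libraries, which may be technical.

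Granule cells are the small, very numerous excitatory neurons of the cerebellum, and their parallel fibers contact the dendrites of Purkinje cells, the inhibitory output neurons of the cerebellar cortex. Granule cells secrete cerebellins, proteins that bind on both sides of that synapse and hold it together. The cerebellum is not part of the dorsal vagal complex, but it roofs the same ventricle, and some of the genes described here are also transcribed in brainstem neurons.

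To show the sequences from which these transcripts start, the RefSeq promoters (build GRCm38.p6) of 3 members are printed 5′ to 3′, up to the base before the first annotated start. Gabra6 is the granule cell gene to which the other members are compared, Cbln3 is the member with the largest difference between strains relative to it, and Pcp2 is a Purkinje cell gene. Capitals mark a match to CAGATG, an E box of the kind bound by Neurod1.
Gabra6 (chr11:42321073-42321322, minus strand): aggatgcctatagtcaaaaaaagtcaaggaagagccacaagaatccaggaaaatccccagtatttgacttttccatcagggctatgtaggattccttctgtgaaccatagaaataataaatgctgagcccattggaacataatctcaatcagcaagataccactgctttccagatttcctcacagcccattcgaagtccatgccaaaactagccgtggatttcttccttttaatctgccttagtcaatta
Cbln3 (chr14:55884393-55884506, minus strand): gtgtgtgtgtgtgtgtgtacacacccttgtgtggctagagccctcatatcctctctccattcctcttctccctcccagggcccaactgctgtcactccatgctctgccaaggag
Pcp2 (chr8:3625548-3625797, minus strand): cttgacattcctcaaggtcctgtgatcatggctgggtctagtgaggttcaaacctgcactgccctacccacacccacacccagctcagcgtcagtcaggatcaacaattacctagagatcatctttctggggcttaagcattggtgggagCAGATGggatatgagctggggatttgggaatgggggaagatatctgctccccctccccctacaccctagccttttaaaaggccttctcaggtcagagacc

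RefSeq held promoter windows of 300 bases for 6 members, namely Gabra6, Cbln3, Pcp2, Etv1, Neurod1 and Zic1, and was searched on both strands for 5 motifs. The E box CAGATG was found in 1 of these 6, that of Pcp2, and in 17.2% of all 32817 promoters. The symmetric E box CAGCTG (16.3% of all promoters), the Zic motif CAGCAGG (10.5%), TATAAA (13.6%) and the full site of NFI factors (0.0366%) were in 0 of the 6. A match describes the letters alone.

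The libraries held between 22.03 and 49.61 M expected counts (M, 1e6 counts), and levels are given as counts per 1e6 (CPM). Transcripts of the labelled region were present: the 12 genes of dorsal vagal neurons summed to between 198 and 363.1 CPM, and none of the 12 was at 0 in all libraries. A set of 4 libraries stood apart. Transcripts of 22 Hox genes, which pattern the hindbrain and the regions caudal to it, added up to only 1.14 and 1.91 CPM in control males 1 and 3 of CAST/EiJ. In control male 3 of NZO/HlLtJ they added up to 2.75 CPM, and in the other 33 libraries to at least 20.3 CPM. NZO/HlLtJ male control 1 held 17460 CPM of pituitary hormone transcripts, against at most 23.9 CPM in any other library.

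Every member varied widely between libraries, also between libraries of the same strain and diet. Gabra6 (ENSMUSG00000020428; chromosome 11, 42306437 to 42321072, minus strand), which encodes a GABA-A receptor subunit nearly restricted to granule cells, ran from 2.15 to 315.4 CPM, a range of 146.8-fold with a median of 41.8 CPM. In C57BL/6J its lowest, median and highest values were 10.7, 66.9 and 102.4 CPM on the control diet and 3.51, 37.2 and 94.4 CPM on HFHS. In CAST/EiJ they were 2.72, 104.3 and 315.4 CPM on the control diet and 3.09, 18.3 and 99.3 CPM on HFHS. The 6 groups overlapped, and CAST/EiJ controls spanned nearly the whole range by themselves. In NZO/HlLtJ the values were 2.15, 73.4 and 122.9 CPM on the control diet and 2.26, 56.3 and 152.3 CPM on HFHS. The order of the group medians, from CAST/EiJ control down to CAST/EiJ HFHS, thus has no neighbours that are separated beyond their spread.

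**Figure D1:**
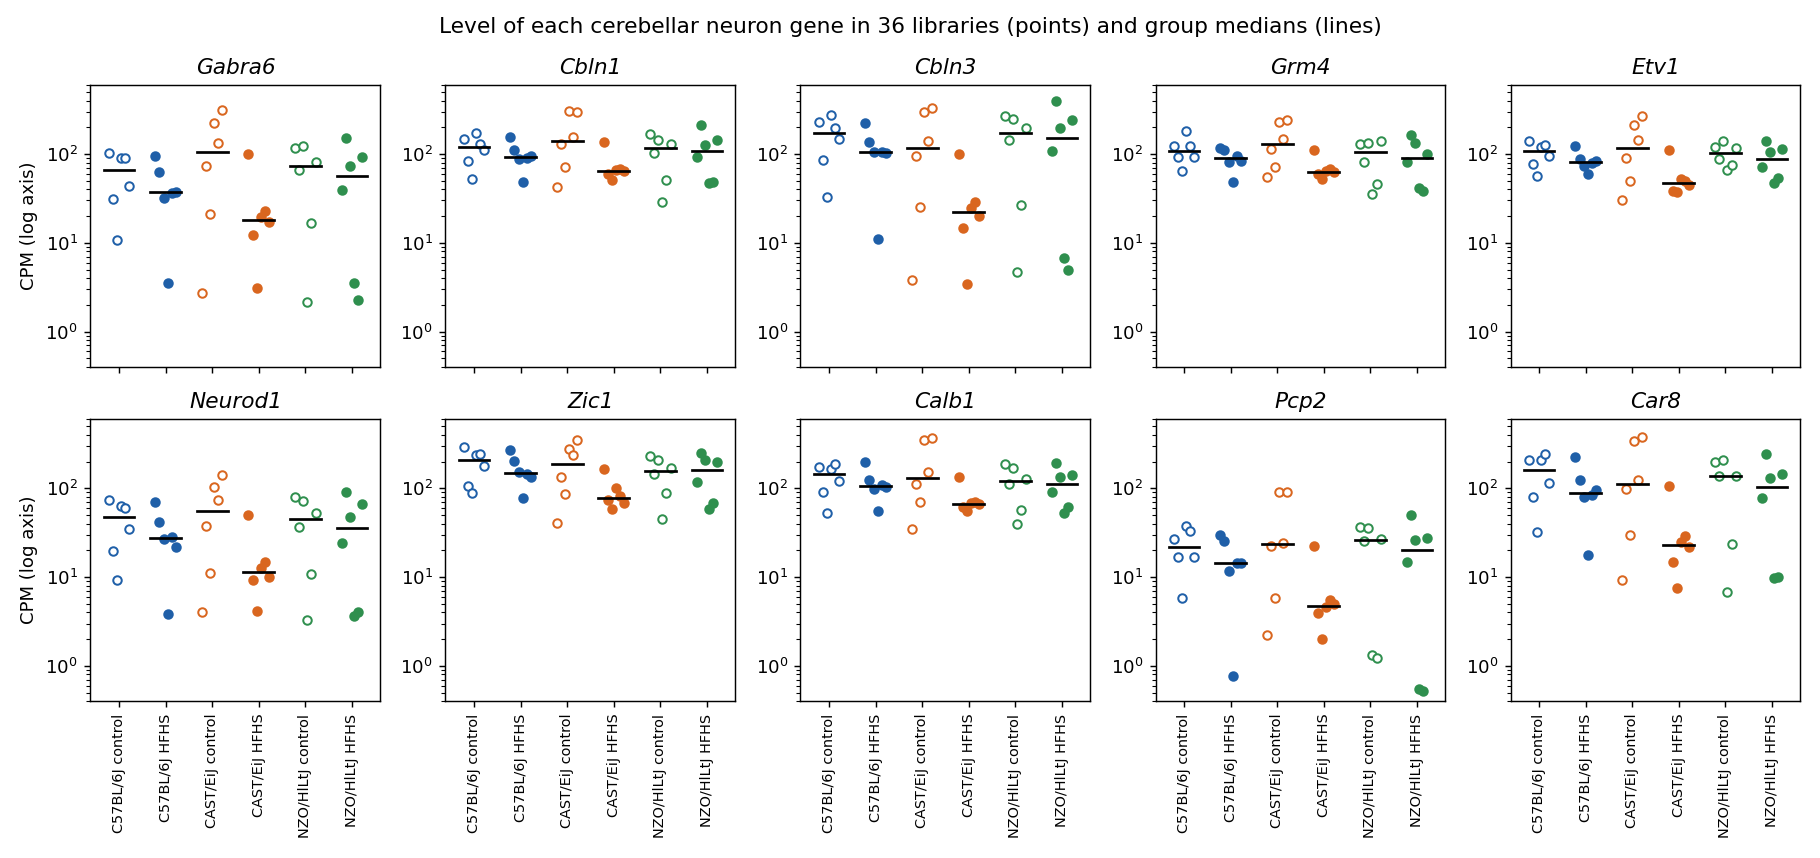
Level of each of the 10 genes in CPM (log axis) in the 36 libraries, by strain and diet (open points control, filled points HFHS; 6 libraries per column; lines are medians). Gabra6 runs from 2.15 to 315.4 CPM, while Grm4 runs from 35.5 to 238.8 CPM, and CAST/EiJ male control 3 is among the 2 highest libraries in each of the 10 panels.

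The remaining granule cell genes fell into steep and shallow ones. Cbln3 (ENSMUSG00000040380; chromosome 14, 55878913 to 55884392, minus strand), a cerebellin made almost solely by granule cells, ran from 3.42 CPM in CAST/EiJ female HFHS 3 to 399.6 CPM in NZO/HlLtJ female HFHS 2 (116.8-fold). Neurod1 (ENSMUSG00000034701; chromosome 2, 79452521 to 79456751, minus strand), the transcription factor that drives granule cell differentiation, ran from 3.29 to 141.6 CPM (43-fold). The lowest libraries were thus close to 0 for both, as for Gabra6. Cbln1 (ENSMUSG00000031654; chromosome 8, 87468405 to 87472609, minus strand), the cerebellin that organises the synapse between parallel fibers and Purkinje cells, ran from 28.7 to 304.1 CPM (10.6-fold). Zic1 (ENSMUSG00000032368; chromosome 9, 91358058 to 91365810, minus strand), a zinc finger factor of granule cell precursors and dorsal hindbrain, ran from 40.4 to 346.6 CPM (8.58-fold). These 2 never came near 0. Etv1 (ENSMUSG00000004151; chromosome 12, 38779380 to 38870484, plus strand), an ETS factor of maturing granule cells, ran from 30 to 270.6 CPM (9.03-fold). Grm4 (ENSMUSG00000063239; chromosome 17, 27422387 to 27521403, minus strand), the presynaptic glutamate receptor of parallel fibers, had the narrowest range of the 10, from 35.5 to 238.8 CPM (6.73-fold).

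The Purkinje cell genes split in the same way. Pcp2 (ENSMUSG00000004630; chromosome 8, 3623371 to 3625545, minus strand), a G protein regulator of Purkinje and retinal bipolar cells, had the widest range, from 0.517 to 91.1 CPM (176.1-fold). Car8 (ENSMUSG00000041261; chromosome 4, 8143362 to 8239041, minus strand), a carbonic anhydrase relative that binds the IP3 receptor, ran from 6.85 to 381.7 CPM (55.8-fold). Calb1 (ENSMUSG00000028222; chromosome 4, 15881264 to 15908064, plus strand), the calcium buffer calbindin, which many neuron types outside the cerebellum also make, ran from 34.5 to 364.6 CPM (10.6-fold). Its floor was thus well above those of Pcp2 and Car8.

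All coordinates are those of gencode vM21 on GRCm38, and all 10 genes are protein coding. Whether the counting used the strand is not given in the sources used here. Genes on the opposite strand overlap Cbln1, Grm4, Pcp2, Neurod1, Zic1 and Car8, and without strand their reads cannot be told apart. Gene models on the same strand overlap Grm4, Neurod1 and Car8. Etv1 shares 9.05% of its 50-base sequences with other genes, most of them with Gm5454, and Neurod1 shares 5.71%, most with Cerkl, so the split of reads there is uncertain. The other 8 share at most 1.40%.

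Scaled by exon length, the median level over the 36 libraries was highest for Cbln1, at 32.4 CPM per kilobase, followed by Zic1 at 25.4 and Car8 at 24.9 CPM per kilobase. Calb1 (22.7), Cbln3 (21.5), Gabra6 (16.8), Grm4 (15.5), Neurod1 (11.6), Pcp2 (9.23) and Etv1 (6.46 CPM per kilobase) came next. The highest single library gave 126.7 CPM per kilobase for Gabra6, 100.1 for Cbln1 and 99.1 for Car8.

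Within groups of the same strain, diet and sex the SD of log2 CPM was 1.74 for Gabra6, 1.73 for Cbln3, 1.65 for Pcp2, 1.38 for Car8 and 1.37 for Neurod1. These lie at or above the 99.3 percentile of the 20108 genes tested, whose median SD was 0.21. For Cbln1, Zic1, Calb1, Grm4 and Etv1 it was between 0.53 and 0.66, from the 79.8 to the 88.8 percentile. CAST/EiJ male control 3 was among the 2 highest libraries for 10 of the 10 members and CAST/EiJ male control 1 for 8. NZO/HlLtJ male control 1, the library with the pituitary transcripts, was among the 2 lowest for 7, and CAST/EiJ female control 1 for 5.

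The 10 genes rose and fell together over the libraries. The Spearman correlation of log2 CPM with Gabra6 was between 0.92 (Cbln3) and 0.99 (Neurod1) for the 9 other members, with a median of 0.94. Pearson's r was between 0.87 (Etv1) and 0.99 (Neurod1). Each had a two-sided permutation p of 1e-05, the smallest that 100000 resamples can give, and an adjusted p of 1e-05 over the 9. Without the 2 libraries farthest from the median of Gabra6, r was between 0.92 (Etv1 and Grm4) and 0.99 (Neurod1). Within strains Spearman's rho ran from 0.86 to 0.99. The 45 pairs of members, granule and Purkinje cell genes together, had Spearman correlations from 0.90 to 0.99 with a median of 0.95. In bulk tissue, fewer cells of a type and less RNA per cell cannot be told apart.

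Straight lines fitted within each strain gave 4 members a small intercept, relative to their mean level, and 5 members a larger one. For Cbln3, Pcp2, Neurod1 and Car8 the intercept at 0 CPM of Gabra6 was between -5.5% and 15.8% of the mean level in the strain. In CAST/EiJ, Car8 had an intercept of -0.836 CPM (SE 9.23) and a slope of 1.27 CPM per CPM of Gabra6 (SE 0.0744). There Neurod1 had an intercept of 4.01 CPM (SE 1.2), above 0 by more than its SE. The ratio to Gabra6 was not constant for all 4. In NZO/HlLtJ male HFHS 2, with 2.26 CPM of Gabra6, Neurod1 per Gabra6 was 1.81 against a strain median of 0.654. For Car8 it was 4.39 against 1.76, for Cbln3 2.21 against 2.26, and for Pcp2 0.229 against 0.321. For Cbln1, Grm4, Calb1, Etv1 and Zic1 the intercept was between 32.6% and 58.8% of the mean. In C57BL/6J, Grm4 had an intercept of 55.9 CPM (SE 10.7, against a mean of 101.2 CPM), and in CAST/EiJ Etv1 had one of 32.8 CPM (SE 1.61, mean 93.8 CPM). These 5 genes are thus the ones whose reads were still numerous in libraries with almost no Gabra6.

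**Figure D2:**
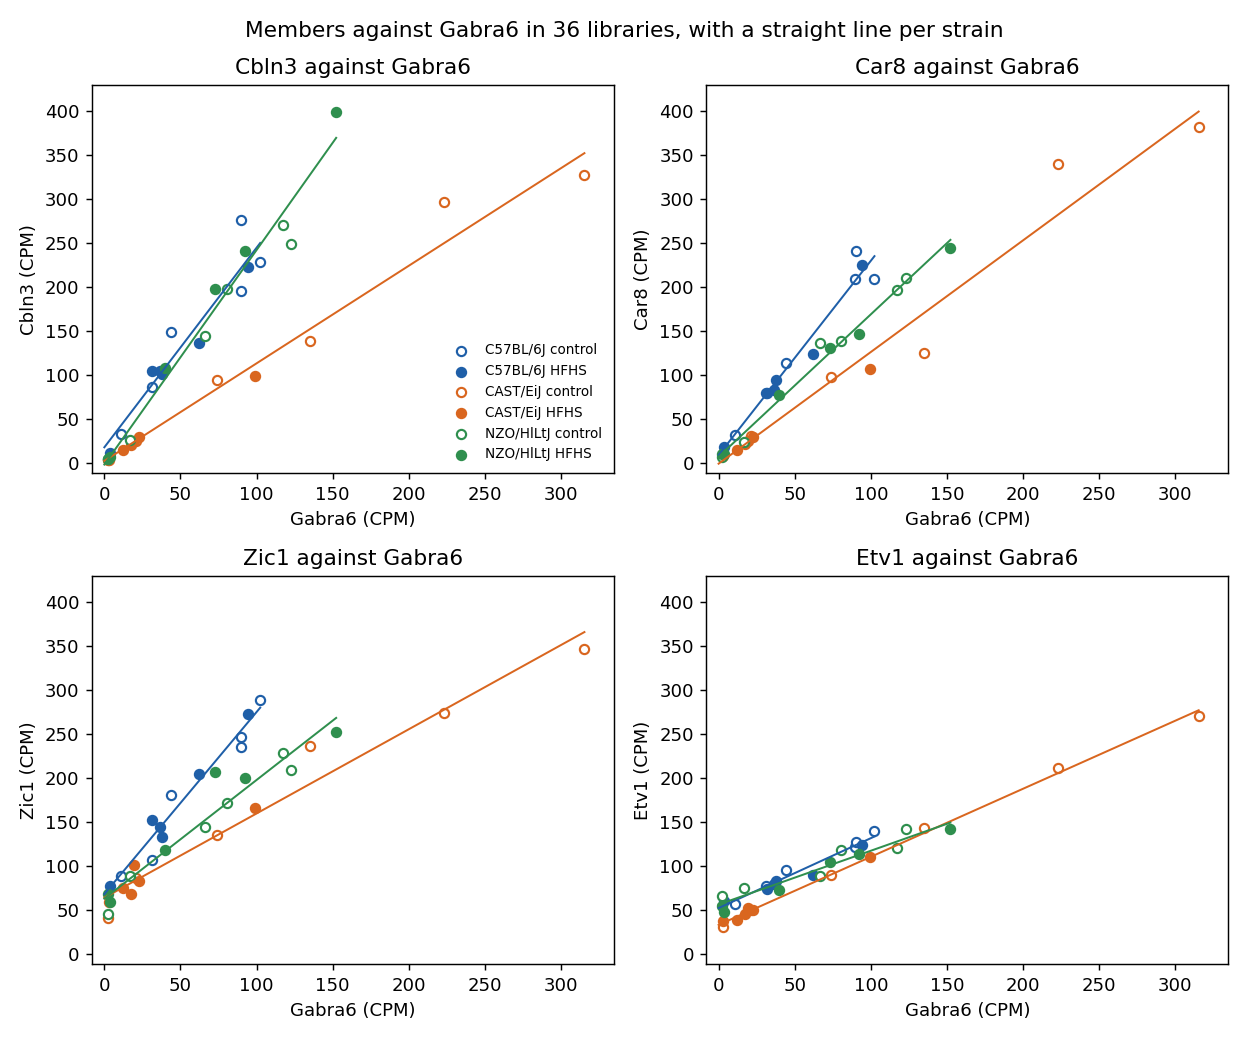
Cbln3, Car8, Zic1 and Etv1 (CPM) against Gabra6 (CPM) in 36 libraries, coloured by strain (open control, filled HFHS), with a straight line fitted per strain. The lines of Cbln3 and Car8 meet the axis near 0 and those of Zic1 and Etv1 between 32.8 and 67.9 CPM, and for Cbln3 the CAST/EiJ libraries lie along a slope of 1.11 against 2.27 in C57BL/6J and 2.44 in NZO/HlLtJ.

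The genes with a pattern most like Gabra6 were sought among the 12778 tested genes with a mean log2 CPM of at least 1 that are neither members nor unnamed gene models, by Pearson's r of log2 CPM over 36 libraries after strain means were taken off. In order they were Fat2 (r = 0.984), a giant cadherin of granule cell parallel fibers, Il16 (0.981), a cytokine precursor with a neuronal form, and Gabrd (0.977), the delta subunit of extrasynaptic GABA-A receptors. Arhgef33 (0.970), Ppp1r17 (0.967), a phosphatase inhibitor of Purkinje cells, Zfp385c (0.965), Crtam (0.963), Cnpy1 (0.962), Itpr1 (0.961), the IP3 receptor abundant in Purkinje cells, and B3gnt5 (0.955) followed. Of all 20098 tested genes that are no members, 86 (0.428%) had r above 0.9 and 0 had r below -0.9, and the median was -0.03. On the same measure Cbln3 had 0.995, Neurod1 0.989 and Car8 0.987, and Etv1 had the lowest value of the members, 0.885.

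Other cerebellar genes followed in part. Of 12 further granule cell genes, 7 had r above 0.9 with Gabra6, among them Pax6 (0.94), Zic2 (0.94) and En2 (0.93), which pattern the cerebellum, while the vesicular glutamate transporter Slc17a7 had 0.63 and Rbfox3, a general neuronal gene, 0.69. Of 14 further Purkinje cell genes 6 had r above 0.9, among them Homer3 (0.94), a scaffold of metabotropic receptors. Aldoc (0.07), an aldolase that astrocytes also make, and Foxp2 (0.34) had low values. The 7 genes of other cerebellar cells were divided: Gdf10, made by Bergmann glia, had 0.93, Eomes, of unipolar brush cells, 0.91 and the glial glutamate transporter Slc1a3 0.91. Grm2 had 0.67, Hopx 0.38, Sorcs3 0.28 and Lgi2 -0.58, so that these 4 did not follow Gabra6 closely or went the other way. Among cerebellins and their partners, Cbln2 had -0.40, Cbln4 -0.02 and Grid1 -0.24, against 0.95 for Cbln1.

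Summed marker lists were also compared with Gabra6, and those of other tissue mostly went against it or did not follow it. The Hox sum had Pearson r = -0.62 (permutation p = 5e-05, adjusted p = 0.00015) and Spearman rho = -0.72 (permutation p = 1e-05, adjusted p = 3e-05, over 9 lists), and within strains rho was between -0.71 and -0.62. For dorsal vagal neuron genes r was -0.49 and rho -0.62 (permutation p = 6e-05, adjusted p = 0.000135), and rho was -0.52, -0.94 and -0.31 within C57BL/6J, CAST/EiJ and NZO/HlLtJ. Most of the dorsal vagal sum is 1 gene, the vesicular glutamate transporter Slc17a6 (135.4 to 264.2 CPM), which many brainstem neurons make. The genes of that list did not move as one: with strain means off, r with Gabra6 was -0.55 for Slc17a6, -0.55 for Chat and -0.63 for Prph, but 0.58 for Calcr, 0.43 for Dbh and 0.41 for Th. Further granule cell genes gave r = 0.94 and rho = 0.96, and further Purkinje cell genes 0.89 and 0.93 (permutation p = 1e-05 and adjusted p = 3e-05 for each rho). The largest genes of the Purkinje cell sum were Aldoc (990 to 1551 CPM) and Itpr1 (111.5 to 2229 CPM). With strain means off, they had r of 0.07 and 0.96 with Gabra6, so that Itpr1 weighs heavily in this relation. Astrocyte genes gave r = -0.55 and rho = -0.53 (permutation p = 0.00094, adjusted p = 0.00169), and rho was -0.36, -0.63 and -0.43 within C57BL/6J, CAST/EiJ and NZO/HlLtJ. Most of the astrocyte sum is Slc1a2 (1829 to 3486 CPM). With strain means off, r was -0.47 for Slc1a2, -0.65 for Gfap, -0.27 for Aqp4 and -0.22 for Gja1, but 0.20 for Aldh1l1. Oligodendrocyte genes gave r = -0.41 and rho = -0.40 (permutation p = 0.0157, adjusted p = 0.0202), with rho of -0.78, -0.84 and -0.51 within these strains and -0.27 without the libraries of low Hox sum. Red blood cell genes gave r = 0.37 and rho = 0.41 (permutation p = 0.0136, adjusted p = 0.0202), and 0.48, 0.50 and 0.13 within strains. Choroid plexus genes gave r = -0.04 and rho = 0.00 (permutation p = 0.994, adjusted p = 0.994), and 0.59, -0.03 and -0.24 within strains. Pituitary genes gave rho = -0.15 (permutation p = 0.391, adjusted p = 0.44) and r = -0.40, but r = -0.18 without the 2 libraries farthest from the median of Gabra6, so that this relation rests on those; within strains rho was -0.08, 0.09 and -0.69. Without the 2 farthest libraries the Hox sum had r = -0.66. CPM are shares of one total, so that a rise of one source lowers the others.

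**Figure D3:**
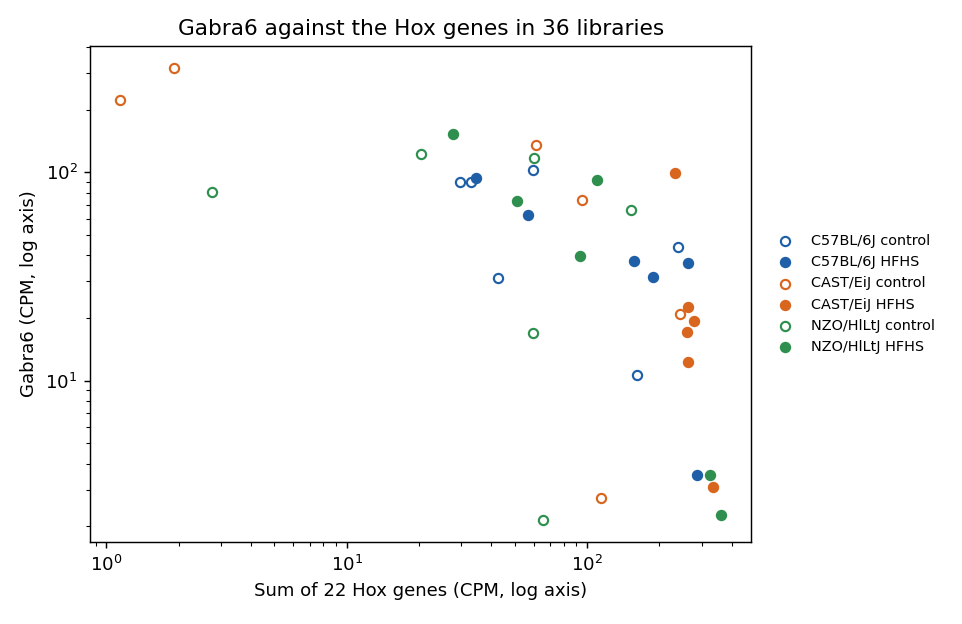
Gabra6 (CPM, log axis) against the sum of 22 Hox genes (CPM, log axis) in 36 libraries, coloured by strain (open control, filled HFHS). The 3 libraries with a Hox sum from 1.14 to 2.75 CPM hold between 80.5 and 315.4 CPM of Gabra6, and the 4 libraries with the highest Hox sums hold between 2.26 and 3.53 CPM.

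The first principal component of all tested genes, with strain means taken off, held 17.9% of the variance and followed Gabra6 with r = 0.86 and rho = 0.91 (permutation p = 1e-05 for each, n = 36), and with r = 0.87 without the 2 farthest libraries. Gabra6 and the other members are among the genes that form the component, so that these p-values do not come from an independent axis. The libraries' position along the main axis within strains was thus close to their order by cerebellar transcripts.

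Diet was compared within each strain, to see whether the amount of cerebellar RNA differed between the foods that the study compared. In CAST/EiJ all 10 members had lower fitted levels on HFHS, but 0 of 10 were called in edgeR's test (adjusted p between 0.103 and 0.341), against 0.269% of all genes tested. Without adjustment 7 of 10 had p under 0.05, as had 18.5% of all genes. The members rise and fall together over the libraries, so that the 7 are not independent and the 2 shares cannot be weighed against each other. Etv1 had a lowest, median and highest value of 30, 116.4 and 270.6 CPM in the 6 controls and 37.5, 46.9 and 109.6 CPM in the 6 HFHS libraries. For Pcp2 they were 2.23, 23.5 and 91.1 CPM in controls and 1.99, 4.78 and 22.3 CPM on HFHS. The control medians were thus higher, while the groups overlapped for both genes. By edgeR, the log2 difference of Gabra6 was -1.64 (SE 0.91, adjusted p = 0.341), that of Pcp2 -1.94 (SE 0.87) and that of Etv1, with the lowest p, -0.98 (SE 0.31, adjusted p = 0.103). The median of the members was -1.20, and that of all tested genes 0.00. DESeq2 called 1 of 10, Etv1 (adjusted p = 0.0442), and limma on variance-stabilised values 0.

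The CAST/EiJ values rest on few libraries. Gabra6 was 223.1, 134.8 and 315.4 CPM in the control males, and 2.72, 73.8 and 21 CPM in the control females. On HFHS it was 19.4, 22.7 and 17.2 CPM in males and 99.3, 12.3 and 3.09 CPM in females. The 3 control males thus lay above every HFHS library, while the control females did not. Without the 2 control males and the NZO/HlLtJ library of low Hox sum, Gabra6 had a log2 difference of -1.27 and the median of the members was -0.93, with 0 called. With the mean log2 level of the Hox genes as a covariate the median turned to 0.25, with 0 called, but the Hox sum nearly separated the diets in this strain. Leaving out CAST/EiJ female HFHS 1 gave a median of -1.79, and Etv1 was called (log2 difference -1.34, adjusted p = 0.036 in edgeR's test). Red blood cell transcripts summed to between 654.4 and 2538 CPM in CAST/EiJ controls and 209.5 to 384.5 CPM on HFHS, without overlap, and the Hox sum was between 1.14 and 244.3 CPM in controls and 233.3 to 333.1 CPM on HFHS. Their part in the result was not tested. The 12 further granule cell genes had a median log2 difference of -1.07 between diets in CAST/EiJ and the 14 further Purkinje cell genes -0.63, with 0 called in either list.

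In C57BL/6J the fitted differences of the members were between -0.57 and -0.21, with a median of -0.44, and 0 of 10 were called (0% of all genes called; 525 genes, 2.61%, had an unadjusted p under 0.05 in edgeR's test, none of them a member). In NZO/HlLtJ they were between -0.21 and 0.13 with a median of -0.07, and 0 of 10 were called or had an unadjusted p under 0.05 (0.0497% and 10% of all genes). The NZO/HlLtJ median was -0.92 without NZO/HlLtJ male HFHS 3 and 0.67 without NZO/HlLtJ male control 3. DESeq2 and limma also called 0 of 10 in these 2 strains. The diet difference was not shown to differ between strains: 0 of 10 members were called for the interaction of strain and diet (0% of all genes), with adjusted p between 0.668 and 0.845. For sex, male minus female, the median was -0.16 and 0 of 10 were called or had an unadjusted p under 0.05 (0.0796% and 5.09% of all genes). For the interaction, too, 0 of 10 had an unadjusted p under 0.05 (8.58% of all genes), and DESeq2 and limma called 0 of 10 in both.

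At an equal level of Gabra6, which was put in the same fit as a covariate after the levels had been seen, the median log2 difference of the 9 other members between diets was -0.06 in C57BL/6J, -0.31 in CAST/EiJ and 0.09 in NZO/HlLtJ, with 0 of 9 called in each (0%, 0.0249% and 0.0845% of all genes). The fitted differences in CAST/EiJ were smaller than without the covariate for each of the 9. That follows from the fit, because the members vary closely with Gabra6 and Gabra6 itself had a lower fitted level on HFHS there. Car8 (-0.51, SE 0.15) and Etv1 (-0.52, SE 0.15) kept the largest values there (both adjusted p = 0.197 in edgeR's test). The covariate had the same slope in all groups, and these values depend on that. In CAST/EiJ, Car8 per Gabra6 overlapped between diets, from 0.93 to 3.4 in controls and from 1.08 to 2.4 on HFHS. The straight line of Etv1 against Gabra6 in this strain, over both diets, had a squared r of 1.00.

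Between strains, 0 of 10 members were called in edgeR's test for any pair, and 0 had an unadjusted p under 0.05. All genes were called far more often, 23.8% for NZO/HlLtJ minus C57BL/6J, 52.2% for CAST/EiJ minus C57BL/6J and 49.8% for NZO/HlLtJ minus CAST/EiJ, and 34.1%, 57% and 54.9% had an unadjusted p under 0.05. DESeq2 and limma also called 0 of 10 in each. The median difference of the members was -0.05, -0.34 and 0.26 in the same order. Cbln3 was the farthest from 0, at -1.19 (SE 0.64, adjusted p = 0.128 in edgeR's test) for CAST/EiJ minus C57BL/6J and 1.27 (SE 0.64, adjusted p = 0.108) for NZO/HlLtJ minus CAST/EiJ. For CAST/EiJ minus C57BL/6J, Car8 gave -0.94 (SE 0.54) and Zic1 -0.52 (SE 0.27), neither called. Leaving out CAST/EiJ female HFHS 1 led edgeR to call these 3 lower, Cbln3 at -1.69 (adjusted p = 0.035), Car8 at -1.41 (adjusted p = 0.0321) and Zic1 at -0.66 (adjusted p = 0.0431). Cbln3 was then also called for NZO/HlLtJ minus CAST/EiJ (1.78), as it was without CAST/EiJ female control 2 (1.62).

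Relative to Gabra6, Cbln3 separated CAST/EiJ from the other strains library by library. Cbln3 is the member with the largest strain difference relative to Gabra6, so that this separation is read from the values that picked it. How many other genes separate the strains in this way was not counted. At an equal level of Gabra6, 53.9% of all genes were called for CAST/EiJ minus C57BL/6J. The ratio of Cbln3 to Gabra6 CPM had a lowest, median and highest value of 2.18, 2.81 and 3.4 in C57BL/6J and of 1.56, 2.26 and 2.72 in NZO/HlLtJ. In CAST/EiJ they were 0.998, 1.21 and 1.41, below every library of the others. NZO/HlLtJ and C57BL/6J overlapped. Within CAST/EiJ the ratio stayed in this range at low and high levels of Gabra6. Female control 1, with 2.72 CPM of Gabra6, gave the highest ratio, 1.41, and female HFHS 3, with 3.09 CPM, gave 1.11. Male control 1, with 223.1 CPM, gave 1.33, and male control 3, with 315.4 CPM, gave 1.04. Relative to Neurod1, Cbln3 lay between 0.825 and 2.85 in CAST/EiJ, with a median of 1.98, and between 2.87 and 4.6 in C57BL/6J, with a median of 3.59. Those 2 strains did not overlap there, but NZO/HlLtJ (1.22 to 4.41, median 3.56) overlapped both. Over Fat2 the strains overlapped, with Cbln3 between 0.155 and 0.582 in CAST/EiJ (median 0.397), 0.42 and 1.02 in C57BL/6J (median 0.801) and 0.169 and 0.978 in NZO/HlLtJ (median 0.719). CAST/EiJ and C57BL/6J also overlapped over Pcp2 (1.72 to 5.67 against 5.06 to 14.5), Car8 (medians 0.931 and 1.09) and Cbln1 (0.0667 to 1.1 against 0.226 to 1.59).

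**Figure D4:**
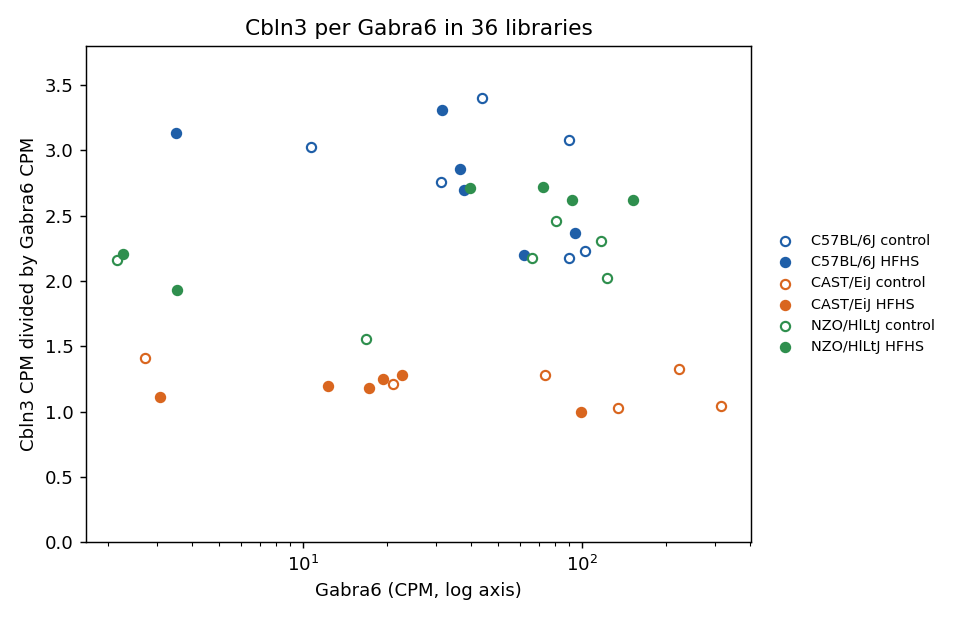
Cbln3 CPM divided by Gabra6 CPM against Gabra6 (CPM, log axis) in 36 libraries, coloured by strain (open control, filled HFHS). The 12 CAST/EiJ libraries lie between 0.998 and 1.41 over the whole range of Gabra6, below the 24 others, which lie between 1.56 and 3.4.

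With Gabra6 in the fit, more members were called between strains. For CAST/EiJ minus C57BL/6J 5 of 9 members were called lower and 0 higher, where 53.9% of all genes were called, 28.6% lower and 25.3% higher. By edgeR, Cbln3 had a log2 difference of -1.22 (SE 0.08, adjusted p = 9.56e-13), Car8 of -0.91 (SE 0.10, adjusted p = 7.55e-09) and Zic1 of -0.44 (SE 0.08, adjusted p = 5.05e-05). Neurod1 (-0.29, SE 0.09) and Etv1 (-0.25, SE 0.10) were also called, and Cbln1 (0.05), Grm4 (0.01), Calb1 (-0.13) and Pcp2 (-0.34, SE 0.21) were not. For NZO/HlLtJ minus C57BL/6J 3 of 9 were called lower (13.2% of all genes) and 0 higher (12.6%; 25.8% in either direction), namely Car8 (-0.41), Cbln3 (-0.27) and Zic1 (-0.23, adjusted p = 0.0422 in edgeR's test). Leaving out single libraries took the Zic1 call away in 23 of 36 fits. For NZO/HlLtJ minus CAST/EiJ 5 of 9 were called higher (27.8% of all genes) and 0 lower (23.6%; 51.5% in either direction), namely Cbln3 (0.95), Car8 (0.50), Etv1 (0.32), Neurod1 (0.27) and Zic1 (0.22). With so many genes called between these strains, and members that share cells, the counts say nothing particular to cerebellar genes.

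The choice of the reference gene moved these values, and 3 differences were called under each of the 3 references for CAST/EiJ minus C57BL/6J. The references are granule cell genes that vary alike: with strain means off, r with Gabra6 was 0.989 for Neurod1 and 0.984 for Fat2. Fits that share a call are thus not independent of each other. With Neurod1 or Fat2 in place of Gabra6, Cbln3 was lower by -0.87 (SE 0.13) or -0.85 (SE 0.12), Car8 by -0.64 or -0.64, and Zic1 by -0.31 or -0.32, and Etv1 was not called. At an equal level of Neurod1, 3 of 9 members were called lower (28.8% of all genes) and 2 higher (25.7%), and at an equal level of Fat2 3 of 10 lower (28.7%) and 1 higher (25.5%). Gabra6 itself was then called higher in CAST/EiJ by edgeR, with a log2 difference of 0.35 at an equal Neurod1 level (SE 0.11, adjusted p = 0.0107) and of 0.35 at an equal Fat2 level (SE 0.13, adjusted p = 0.0223). The size of a difference relative to 1 gene therefore holds that gene's own difference too.

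For NZO/HlLtJ minus CAST/EiJ, 3 of 9 members were called higher and 3 lower at an equal level of Neurod1 (28.1% and 23.9% of all genes), and 1 of 10 higher and 4 lower at an equal level of Fat2 (27.9% and 23.7%). Cbln3 was called under each reference (0.95, 0.62 with Neurod1 and 0.48 with Fat2), while Car8 was called with Neurod1 (0.25) but not with Fat2 (0.14, adjusted p = 0.395 in edgeR's test). Zic1 was called with Gabra6 but not with Neurod1 (0.10) or Fat2 (0.05). Grm4 and Cbln1 were lower in NZO/HlLtJ at an equal level of Neurod1 (-0.24 and -0.18) or Fat2 (-0.29 and -0.23) and were not called at an equal level of Gabra6. For NZO/HlLtJ minus C57BL/6J, 2 of 9 members were called lower and 0 higher at an equal level of Neurod1 (13.5% and 12.8% of all genes), and 3 of 10 lower and 0 higher at an equal level of Fat2 (13.3% and 12.5%). Car8 was called under each reference (-0.41, -0.39 and -0.50). Car8 is a Purkinje cell gene, while the references are granule cell genes. Over Pcp2, also a Purkinje cell gene, Car8 overlapped between strains. It lay between 4.67 and 23.1 in C57BL/6J (median 6.62), 4.83 and 19.4 in NZO/HlLtJ (median 5.36) and 3.73 and 5.42 in CAST/EiJ (median 4.31). GRCm38 is the sole build that the submitters' processing notes name for the 3 strains, and the part of sequence differences between strains in these values was not tested.

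**Figure D5:**
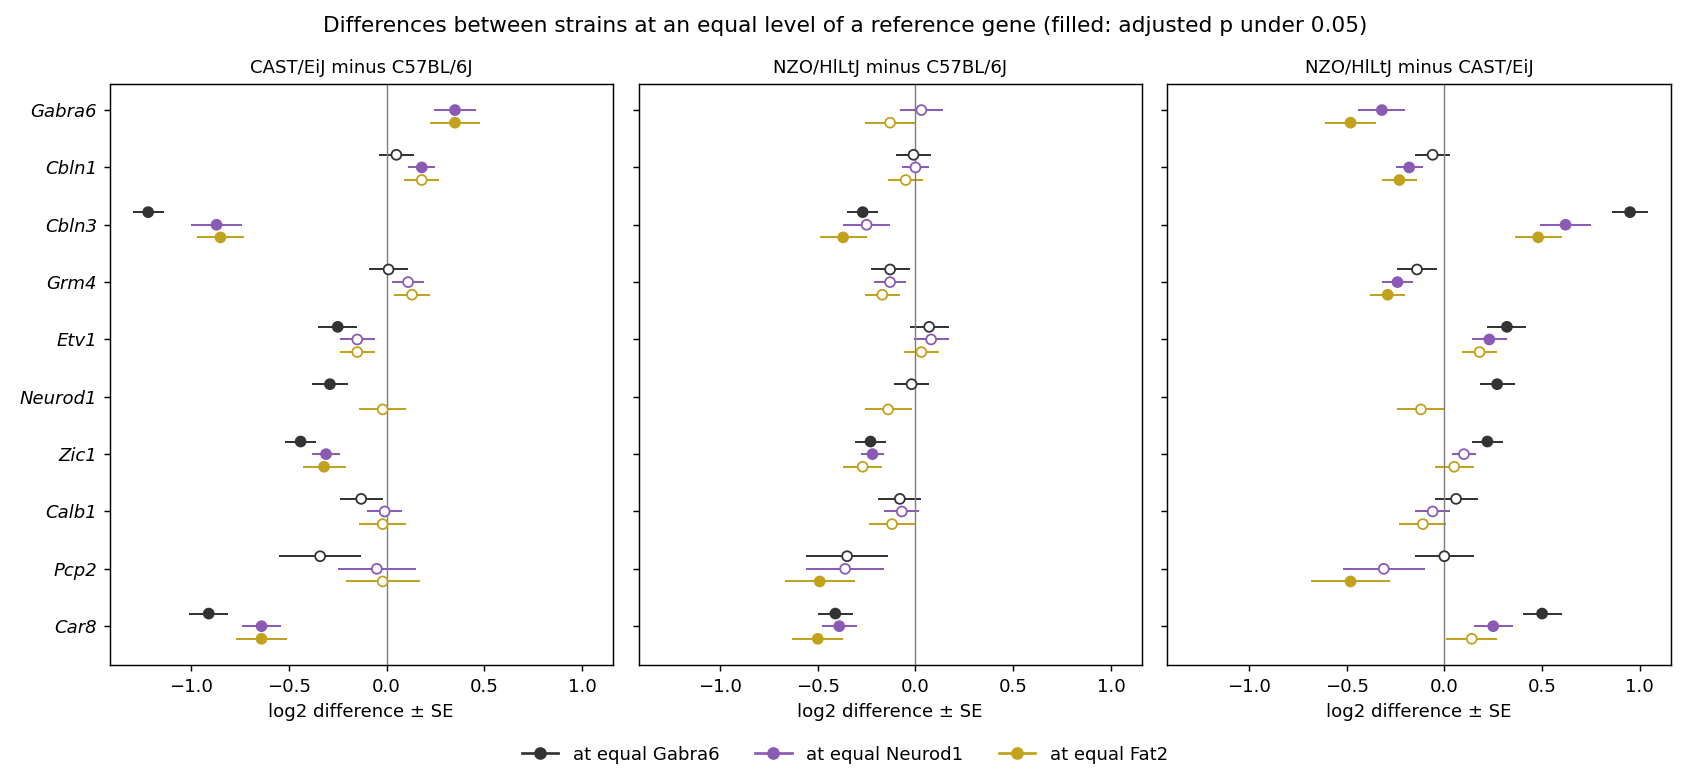
Log2 difference between strains (x axis, with SE bars) of each member at an equal level of Gabra6, Neurod1 or Fat2, for the 3 pairs of strains. Filled points have an adjusted p under 0.05. Cbln3 is filled in all 3 fits on the left (-1.22, -0.87 and -0.85) and on the right (0.95, 0.62 and 0.48), while Cbln1, Grm4 and Calb1 lie between -0.29 and 0.18 throughout.

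Among the other cerebellin genes and their partners, some differed between strains in the fit with no covariate. By edgeR, CAST/EiJ minus C57BL/6J gave -0.37 for Cbln4, a cerebellin of other brain regions (SE 0.06, adjusted p = 3.11e-06), and 0.18 for Grid1, a relative of glutamate receptors (SE 0.05, adjusted p = 0.00415). These were the 2 of the 9 genes of this list that were called for that pair, a smaller share than the 52.2% of all genes. For NZO/HlLtJ minus C57BL/6J 1 of the 9 was called lower and 0 higher (23.8% of all genes in either direction). For NZO/HlLtJ minus CAST/EiJ 1 was called higher and 2 lower (49.8% in either direction). Of the 12 further granule cell genes 0 were called for any pair, and of the 14 further Purkinje cell genes 1, Aldoc, was lower than in C57BL/6J in both other strains (-0.27 in CAST/EiJ and -0.21 in NZO/HlLtJ). Over all genes 52.2% and 23.8% were called for these 2 pairs, and 49.8% for NZO/HlLtJ minus CAST/EiJ. Of 7 genes of other cerebellar cells, 3 were called for NZO/HlLtJ minus C57BL/6J: Hopx (-0.37), made by Bergmann glia and astrocytes, and Lgi2 (-0.32) were lower, and Grm2 (0.32), a glutamate receptor of Golgi and unipolar brush cells, was higher. For CAST/EiJ minus C57BL/6J 1 of 7 was called, Hopx (-0.48), and for NZO/HlLtJ minus CAST/EiJ 1 of 7, Grm2 (0.39).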

How the data were processed

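RNA of 36 libraries was measured by polyA RNA-seq. The authors deposited estimated counts per Ensembl gene (how reads were assigned to genes is not stated), of which 18.7% to 22.7% in a library were not whole within a tolerance of 1e-06, and a table of log2 values from a variance-stabilising transformation of the same libraries. Per the submitters' processing notes, GRCm38 was the build and DESeq2 was used. No aligner or counting program is given in the sources used here. Between 22.03 and 49.61 M counts per library were available, and CPM, SD and ranges over libraries carry the precision.

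Expected counts were rounded and tested with edgeR 4.0.16 (robust quasi-likelihood test, R 4.3.3). filterByExpr (minimum count 10, minimum total 15) left 20108 genes, TMM factors ran from 0.959 to 1.04, and the 12 groups each had their own mean, which left 24 residual degrees of freedom. Adjusted p is Benjamini-Hochberg over all tested genes, called under 0.05. Differences are log2 fold changes. DESeq2 1.42.0, limma 3.58.1 on the deposited log2 values, other scaling, no filter, an additive model, the mean log2 level of Hox genes as covariate, and leaving out libraries were alternatives. The fit with a reference gene as covariate was added after the levels had been seen. The script was tested on simulated data. Exon lengths, coordinates and overlaps come from gencode vM21 and promoters from RefSeq.

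Groups were taken from the labels. The 10 members are all named, further genes come from the marker lists, and the genes most like Gabra6 are the 10 with the highest r among those with a mean log2 CPM of at least 1. The members and lists were chosen with earlier results of these data known. Some genes of these lists are not reported here.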

Additional observations from a re-analysis of the deposited data

Results flagged for a closer look

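Within each strain and diet, 60 sets of 6 libraries were checked for a value far from the rest, and 7 were found, all in 2 libraries. Such a check picks out about 1 in 20 sets by chance, and the members move together, so that the 7 are not independent. C57BL/6J male HFHS 1 was low for Gabra6 (3.51 CPM, against 31.6 to 94.4 in the other HFHS libraries of the strain), Cbln3 (11 CPM, against 101.7 to 223.2) and Pcp2 (0.76 CPM, against 11.6 to 30.1). CAST/EiJ female HFHS 1 was high for Cbln1 (136.7 CPM, against 51.3 to 67.2), Grm4 (111 CPM, against 51.9 to 67.7), Calb1 (132.4 CPM, against 55.2 to 69.4) and Etv1 (109.6 CPM, against 37.5 to 52.3).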

How the results depend on the processing

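No paired analysis was possible because the labels carry no replicate numbers that could join libraries across groups. Counts of called members were the same under RLE factors, no filter, the additive model and limma on log2 values. Members called for diet in CAST/EiJ rose from 0 to 1 with DESeq2, and ran from 0 to 1 when single libraries were left out (Etv1). For NZO/HlLtJ minus CAST/EiJ the Hox covariate gave 1 (Grm4, -0.43) and single omissions 0 to 1 (Cbln3). For CAST/EiJ minus C57BL/6J single omissions gave 0 to 3. At an equal Gabra6 level, NZO/HlLtJ minus CAST/EiJ gave 5 members, 3 without the libraries of low Hox sum, and 3 to 5 with single omissions. The median Spearman correlation with Gabra6 was 0.94, and 0.97 with strain means taken off.

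With the Hox covariate the diet difference in CAST/EiJ changed sign for 9 members: Gabra6 0.39, Cbln1 0.17, Cbln3 0.34, Grm4 0.14, Calb1 0.20, Pcp2 0.47, Neurod1 0.37, Zic1 0.08 and Car8 0.30. None of these diet differences was called. Car8 in NZO/HlLtJ minus CAST/EiJ then had -0.13. In CAST/EiJ the Hox sum had a median of 78.6 CPM in controls (1.14 to 244.3) and 262.6 CPM on HFHS (233.3 to 333.1). The ranges barely overlapped, so that the fit could hardly part diet from Hox level in this strain. The cause was not tested. The spread of Gabra6 within groups limits what these 36 libraries can show for diet or strain: its SE for diet in CAST/EiJ was 0.91 log2 units.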
